A study of Bos taurus with 24 samples.

Results

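The 6 libraries described here are the E. coli wells of the high responder cows, 3 taken at 18 h and 3 taken at 3 h, out of 24 libraries in the series. They were chosen by the group labels alone, and the question asked of them was how the exposed state moved from the early to the late time point. The 6 untreated wells of the same high responders, 3 at each time, gave the change of the control wells over the same interval. The cells were monocyte-derived macrophages (MDMs) of lactating Holstein cows, 3 cows with a high and 3 with a low in vitro nitric oxide response to E. coli, grown from blood mononuclear cells for 6 days in AIM V medium with 5 ng/ml GM-CSF. Exposed wells received E. coli inactivated with paraformaldehyde at a multiplicity of infection of 5, so the bacteria could not multiply, and control wells received none. Per the study's methods each cow gave 1 exposed and 1 control well per time point, and each culture plate was assigned to 1 time point, so time and plate cannot be told apart. The 3 libraries of a group are numbered 1 to 3, and within one phenotype and treatment the libraries of 3 h and 18 h with the same number carry the same letter in their codes, the control wells the letter next to it.

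Macrophages read E. coli mainly through Toll-like receptor 4, which binds the lipopolysaccharide of the outer membrane, and through receptors for peptidoglycan and lipoproteins. An early wave of transcription, driven by NF-kB, AP-1 and interferon regulatory factors, gives cytokines, chemokines and interferon-stimulated genes, together with the inhibitors that end it. Later transcription includes effectors, such as inducible nitric oxide synthase, proteins that handle metals and oxidants, and changes in metabolism and in the lysosomal and lipid programs of the resting cell.

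The measure was the RSEM expected count per gene, given below as CPM, the count per 1e6 counts of the library after TMM scaling of library sizes. CPM are not divided by gene length, so they are compared between libraries and not between genes. Total expected counts ran from 6589401 to 13552456 in the 6 exposed libraries and from 6701530 to 17676166 in the 6 control libraries, with library 1 the smallest at 3 h in both. A gene was called when the edgeR quasi-likelihood test gave a Benjamini-Hochberg adjusted p below 0.05 and the fold was above 1.5.

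On the principal components of log2 CPM, the first component (47.0% of the variance) placed the 6 exposed libraries at 19.1 to 87.8 and the 6 control libraries at -60.8 to -45.0. The second component (17.9%) placed the exposed 3 h libraries at 39.3 to 67.8 and the exposed 18 h libraries at -37.7 to -35.6. Control libraries of both times lay together on it, between -12.0 and -6.26. The median SD of log2 CPM between replicates was 0.322 in the exposed 3 h group and 0.215 in the exposed 18 h group, against 0.410 and 0.181 in the control groups of 3 h and 18 h.

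**Figure D1:**
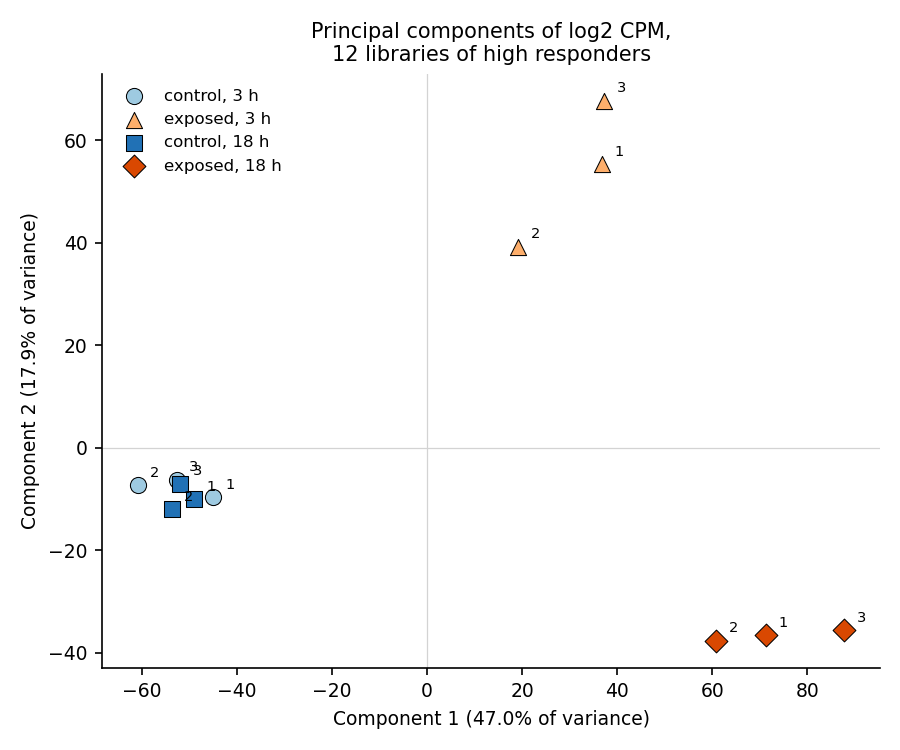
Each point is 1 of the 12 high-responder libraries, placed by its scores on the first and second principal components of log2 CPM over all genes tested, with the replicate number beside it. The exposed libraries of 3 h (39.3 to 67.8 on the second component) and of 18 h (-37.7 to -35.6) lie on opposite sides, while the control libraries of both times overlap.

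Between 3 h and 18 h, 2139 of 11572 genes tested were called in the exposed wells (18.5% of the genes tested), 900 higher at 18 h (7.78%) and 1239 lower (10.7%). Falls were larger than rises: 392 of the genes called lower fell by more than 4-fold, and 131 of those called higher rose by more than 4-fold. Over the same interval none of the 11572 genes was called in the control wells by edgeR (0%), 371 reached a p below 0.05 before adjustment, and 1 was called by DESeq2. The median absolute log2 change over all genes tested was 0.435 in exposed wells and 0.182 in control wells. With a term for the cow, matched by the letters of the library codes, 3080 genes were called in exposed wells, 1378 higher and 1702 lower. In control wells the same fit called 4 genes, 1 higher and 3 lower. Only LAIR1, an inhibitory receptor of leukocytes, had a symbol (log2 change 1.95 ± 0.22 (SE), edgeR adjusted p = 0.0102, chosen after its value was seen). The 3 libraries of 18 h and the 3 of 3 h did not overlap for 4760 genes in exposed wells (41.1%) and for 1082 in control wells (9.35%). Scaling by library totals alone moved the median of all genes in the exposed comparison to 0.19 on the log2 scale and turned the split of the calls to 1544 higher and 918 lower, so 62.7% of the calls were higher against 42.1% with TMM. The changes below are relative to the TMM scale. Without library 1 of 18 h, 1363 genes were called, and without library 3 of 18 h, 1394. Only genes with a symbol could enter the lists below. Of 2250 such genes tested, with all libraries, 243 were called higher and 358 lower.

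Of the 2139 genes called in exposed wells, 1915 (89.5%) changed by less than 1.5-fold in the control wells, in either direction. This was not particular to the called genes. Their median absolute log2 change in control wells was 0.197, against 0.182 over all genes tested. The control change had the same sign as the exposed change for 1148 of the 2139 called genes (53.7%). Across all genes tested, Pearson's r between both changes was 0.105. It is a description over genes, which are not independent replicates, and wells of both kinds came from the same cows.

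**Figure D2:**
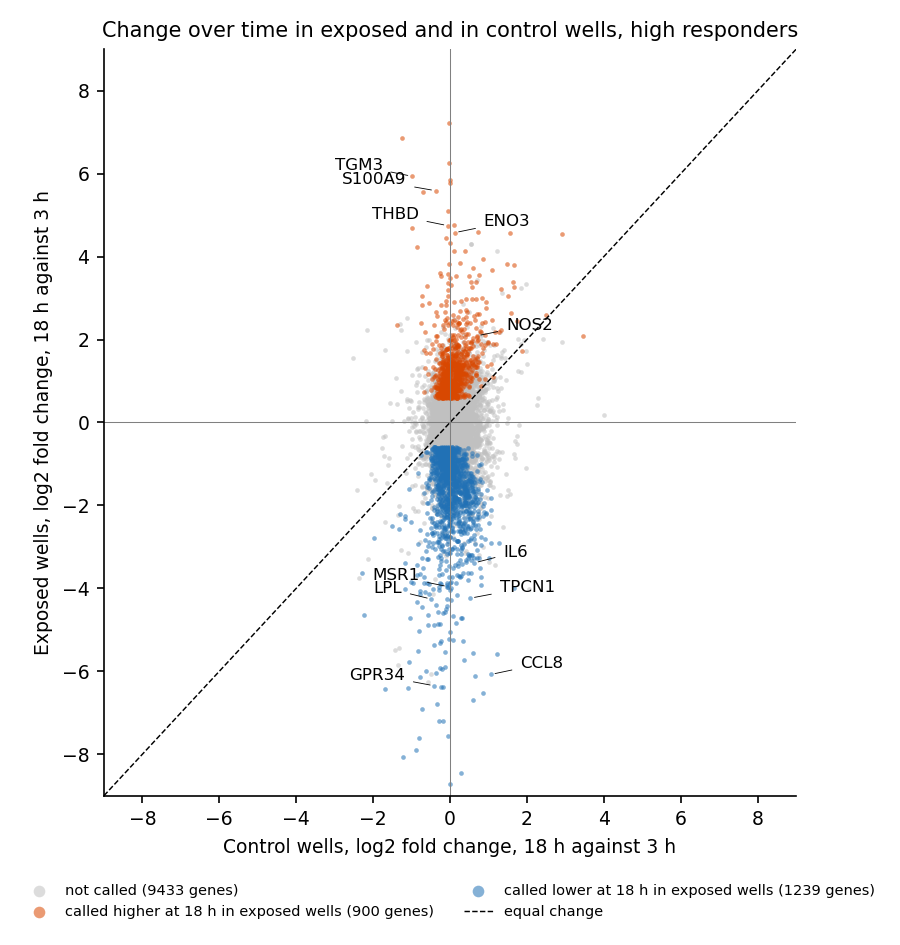
Each point is 1 of 11572 genes, with its log2 fold change of 18 h against 3 h in control wells on the horizontal axis and in exposed wells on the vertical axis; orange and blue mark the 900 genes called higher and the 1239 called lower in exposed wells, and the dashed line marks equal change. The called genes spread along the vertical axis. Their median control change was 0.03 where called higher and -0.02 where called lower, against -0.00498 for all genes tested.

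Cytokines and chemokines, the signals that macrophages send to other cells, did not move as 1 group. Of 29 cytokines listed, 8 could be matched and tested, of which 3 fell and none rose, against 10.7% and 7.78% of all genes tested. Their median log2 change was -1.13 in exposed and 0.24 in control wells. The medians of all genes tested were 0.000682 and -0.00498. IL6, the inducer of the acute phase response, was at 108, 78.6 and 89.8 CPM in the 3 h libraries and 8.77, 15.6 and 1.65 CPM in the 18 h libraries. All 3 libraries of 18 h lay below all 3 of 3 h (log2 fold change -3.39 ± 0.60 (SE, n = 3 and 3), edgeR adjusted p = 0.00294), and library 3 of 18 h lay within the range of the control wells, which were at 1.06, 1.69 and 0.446 CPM at 3 h and 2.14, 1.57 and 1.14 CPM at 18 h. TNFSF9, the ligand of the T cell costimulator 4-1BB, fell from 197 ± 131 CPM (SD) to 50.4 ± 9.201 CPM (log2 -1.96 ± 0.40 (SE), edgeR adjusted p = 0.00605). IL1B, whose precursor protein is cleaved through the inflammasome pathway, was not called, with means of 8581 CPM at 3 h and 8735 CPM at 18 h in exposed wells against 61.7 and 101 CPM in control wells.

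Among chemokines, 7 of 21 listed were tested, of which 1 rose and 2 fell. Of all genes tested, 7.78% rose and 10.7% fell. The median log2 change of the chemokines was 0.03 in exposed and 0.07 in control wells. With 1 library left out the exposed median ran from -0.18 (library 2 of 3 h) to 0.16 (library 3 of 3 h). CCL8, a chemoattractant of monocytes, was at 1842, 588 and 1827 CPM in the 3 h libraries and 24.01, 30.8 and 7.92 CPM in the 18 h libraries. All 3 levels of 18 h lay below 5 of the 6 control values, which were 126, 33.4 and 25.9 CPM at 3 h and 205, 80.4 and 100.04 CPM at 18 h (log2 fold change -6.08 ± 0.83 (SE, n = 3 and 3), edgeR adjusted p = 0.000712 for the exposed wells). CCL4, which attracts monocytes and T cells, was at 12117, 5060.1 and 12545 CPM in the 3 h libraries and 3742, 3101 and 3735 CPM in the 18 h libraries (log2 -1.49 ± 0.44 (SE), edgeR adjusted p = 0.03404). Its call was lost without any 1 of the 3 libraries of 18 h and without library 1 or 3 of 3 h (log2 -1.57 to -1.29, edgeR adjusted p 0.0795 to 0.108). The membrane-bound chemokine CXCL16, also a scavenger of oxidised lipoprotein, rose from 583 ± 95.4 CPM (SD) to 1119.7 ± 130.5 CPM (log2 0.94 ± 0.16 (SE), edgeR adjusted p = 0.00272). The neutrophil chemokine CXCL8 and the T cell chemokine CCL5, were not called. The study names both as M1-associated and picked them for their difference between phenotypes in these libraries. CXCL8 was at 13141, 8232 and 14999.8 CPM in the 3 h libraries and 15926, 13718 and 15278 CPM in the 18 h libraries (log2 0.30 ± 0.24 (SE), edgeR adjusted p = 0.409), and its groups overlapped. CCL5 was at 3874, 2334 and 4310.5 CPM in the 3 h libraries and 7053, 4559.8 and 5973 CPM in the 18 h libraries (log2 0.74 ± 0.54 (SE), edgeR adjusted p = 0.362), with no overlap between the groups.

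NF-kB subunits and feedback inhibitors fell or were not called. Of 10 tested (23 listed), 6 fell and none rose, against 10.7% and 7.78% of all genes tested. All 10 had a negative change, with median log2 change -1.16 in exposed and 0.17 in control wells. The exposed median was -0.77 without library 3 of 3 h. BIRC3, a ubiquitin ligase of the TNF receptor complex, was at 2547, 2974 and 2797 CPM in the 3 h libraries and 534, 599 and 698 CPM in the 18 h libraries. Its replicates lay close together at both times (log2 fold change -2.18 ± 0.17 (SE, n = 3 and 3), edgeR adjusted p = 2.53e-05). Its control wells were at 208, 171 and 151 CPM at 3 h and 191, 172 and 209 CPM at 18 h. TNIP3, a partner of the inhibitor A20, fell from 102 ± 29.3 CPM (SD) to 39.2 ± 3.14 CPM (log2 -1.38 ± 0.28 (SE), edgeR adjusted p = 0.00576). The other called members were NFKBIE, NFKB2, RELB and TNFAIP3, with log2 changes from -1.25 to -1.08. The calls of RELB (edgeR adjusted p 0.0641 to 0.07296) and NFKBIE (edgeR adjusted p 0.0935 to 0.1097) were lost without library 1 or 2 of 18 h or library 3 of 3 h. In every one of these 6 genes the mean at 18 h in exposed wells was still above both control means.

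Of 9 tested components of Toll-like receptor signalling (26 listed), 1 rose and 1 fell, against 7.78% of all genes tested that rose and 10.7% that fell (median log2 change -0.06 in exposed and -0.02 in control wells). The exposed median ran from -0.16 without library 3 of 18 h to 0.10 without library 1 of 3 h. IRAK2, a kinase of the MyD88 complex, was at 730.0, 407 and 919 CPM in the 3 h libraries and 290.1, 188 and 345 CPM in the 18 h libraries (log2 -1.32 ± 0.30 (SE), edgeR adjusted p = 0.0101). NOD2, the intracellular sensor of muramyl dipeptide, was at 33.2, 66.5 and 49.1 CPM in the 3 h libraries and 78.97, 132 and 121 CPM in the 18 h libraries (log2 1.15 ± 0.34 (SE), edgeR adjusted p = 0.0345). Its call was lost without library 2 or 3 of 18 h or library 1 or 3 of 3 h (log2 0.93 to 1.14, edgeR adjusted p 0.09399 to 0.108). TLR4 was at 253 and 243 CPM and TLR2 at 478 and 517 CPM at 3 h and 18 h, neither called. TLR5 stayed below the filter, with 2 counts over the 3 exposed libraries of 3 h and 5 over those of 18 h. 

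Immediate early transcription factors fell or were not called. At 18 h, 5 of 11 tested (25 listed) were lower and none higher, against 10.7% and 7.78% of all genes tested. Their median log2 change was -1.12 in exposed and -0.02 in control wells. Without library 3 of 3 h the exposed median was -0.57. The orphan nuclear receptors NR4A1 and NR4A3 fell furthest. NR4A1 was at 35.8, 17.1 and 70.2 CPM in the 3 h libraries and 6.25, 1.59 and 7.09 CPM in the 18 h libraries (log2 -3.05 ± 0.60 (SE), edgeR adjusted p = 0.00522). NR4A3 was at 14.7, 2.18 and 16.7 CPM in the 3 h libraries and 0.915, 0.752 and 0.827 CPM in the 18 h libraries (log2 -3.72 ± 0.65 (SE), edgeR adjusted p = 0.00277), and its library 2 of 3 h lay nearest to the 18 h values. EGR1, ATF3 and MAFF were the other 3, with log2 changes of -2.30, -1.41 and -1.12. ATF3 lost its call whenever 1 library other than library 2 of 3 h was left out (edgeR adjusted p 0.0584 to 0.0736), and MAFF without library 1 or 2 of 18 h or library 3 of 3 h (edgeR adjusted p 0.106 to 0.132). Without library 1 or 2 of 18 h or library 3 of 3 h, 3 of the 11 were called. In the list of inflammasome and cell death genes, 1 of 5 tested (22 listed) fell, against 10.7% of all genes tested. The median log2 change of the list was -0.04 in control wells and -0.12 in exposed wells. That median was -0.22 without library 3 of 18 h and -0.07 without library 3 of 3 h. The member that fell was NLRP3, the sensor of the canonical inflammasome, at 1591, 738 and 1789 CPM in the 3 h libraries and 335, 357 and 472 CPM in the 18 h libraries (log2 -1.82 ± 0.30 (SE), edgeR adjusted p = 0.00203), against control means of 63.1 and 61.1 CPM.

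Interferon-stimulated genes, the antiviral program that follows type I interferon, had a median log2 change of -0.82 in exposed and 0.05 in control wells. In this list 4 of 27 tested (45 listed) fell, against 10.7% of all genes tested and 358 of the 2250 tested with a symbol. The exposed median was -0.41 without library 1 of 3 h and -1.24 without library 2 of 3 h. IFIT1, which binds viral RNA, was at 1810.5, 288 and 881 CPM in the 3 h libraries and 142, 102 and 108 CPM in the 18 h libraries (log2 fold change -3.08 ± 0.92 (SE, n = 3 and 3), edgeR adjusted p = 0.0358). IFIH1, the cytosolic RNA sensor MDA5, was at 901, 186 and 691 CPM in the 3 h libraries and 119.7, 86.7 and 166 CPM in the 18 h libraries (log2 -2.26 ± 0.57 (SE), edgeR adjusted p = 0.0177). In both genes library 2 of 3 h was the lowest of its group, and no 18 h library reached it. DHX58 and IFI44L were the other 2, with log2 changes of -2.07 and -1.98. How many fell depended on the libraries: 9 without library 2 of 3 h, 2 without library 1 of 18 h, 1 without library 2 of 18 h, 2 without library 3 of 18 h, 1 without library 1 of 3 h and 2 without library 3 of 3 h. With a term for the cow 13 were lower, and none was higher in any of these fits. IFIT1 (log2 -3.27 to -2.31, edgeR adjusted p 0.0675 to 0.1098) and IFI44L (log2 -2.21 to -1.48, edgeR adjusted p 0.0785 to 0.139) lost their calls whenever 1 library other than library 2 of 3 h was left out, IFI44L also with library totals alone. IFIH1 lost its call without library 1 or 2 of 18 h or library 1 of 3 h (log2 -2.26 to -1.82, edgeR adjusted p 0.0579 to 0.0678). Among members that were not called, RSAD2 had means of 734 and 271 CPM and ISG15 of 943 and 367 CPM at 3 h and 18 h. IRF1, a transcription factor of the interferon response named in the study as M1-associated, was at 2032, 1604 and 2687 CPM in the 3 h libraries and 1915, 1922 and 2180.0 CPM in the 18 h libraries (log2 -0.07 ± 0.19 (SE), edgeR adjusted p = 0.828).

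Effectors that act on bacteria held the largest single rises of the 20 lists. Of 14 tested antimicrobial and nitric oxide effectors (30 listed), 6 rose and 1 fell, against 7.78% and 10.7% of all genes tested. Their median log2 change was 0.61 in exposed and 0.11 in control wells. Without library 2 of 18 h the exposed median was 0.26. With a term for the cow, 7 were higher and 3 lower, and without library 2 of 18 h or library 2 of 3 h 2 were lower. S100A9, a subunit of calprotectin, which withholds zinc and manganese from bacteria, was at 8.03, 32.8 and 4.52 CPM in the 3 h libraries and 478, 1187 and 568 CPM in the 18 h libraries. Its control wells stayed at 2.25, 13.2 and 1.54 CPM at 3 h and 2.67, 6.21 and 4.51 CPM at 18 h (log2 fold change 5.59 ± 0.94 (SE, n = 3 and 3), edgeR adjusted p = 0.00231 for the exposed wells). S100A8, the other subunit, was at 10.5, 51.9 and 8.04 CPM in the 3 h libraries and 629, 1737 and 982 CPM in the 18 h libraries (log2 5.55 ± 1.13 (SE), edgeR adjusted p = 0.00613). S100A12, a related calcium-binding alarmin, was at 64.8, 84.1 and 33.7 CPM in the 3 h libraries and 977, 2340.4 and 672 CPM in the 18 h libraries (log2 4.45 ± 0.77 (SE), edgeR adjusted p = 0.00275). For all 3 genes library 2 was the highest at both times, and the lowest 18 h library was several times the highest 3 h library.

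NOS2, the inducible nitric oxide synthase, was at 1843, 1504 and 1946 CPM in the 3 h libraries and 6488, 6898 and 9132 CPM in the 18 h libraries. It was at 2.11, 4.51 and 4.96 CPM at 3 h and 7.82, 6.21 and 5.399 CPM at 18 h in control wells, and the exposed groups did not overlap (log2 fold change 2.09 ± 0.26 (SE, n = 3 and 3), edgeR adjusted p = 0.000408). The cows were grouped by their nitric oxide response, so the level of NOS2 in these animals is not independent of that choice, and the change over time was not used in it. SLC11A1, the phagosomal metal transporter NRAMP1, and CYBB, the catalytic subunit of the phagocyte NADPH oxidase, were the remaining members called higher, with log2 changes of 1.68 and 1.03. The CYBB call was lost without library 2 or 3 of either time (edgeR adjusted p 0.0522 to 0.0738). ASS1, which makes the arginine precursor argininosuccinate, was the member that fell, at 36.2, 58.4 and 45.6 CPM in the 3 h libraries and 6.17, 9.02 and 2.6 CPM in the 18 h libraries (log2 -2.96 ± 0.41 (SE), edgeR adjusted p = 0.000818). Its control wells were at 34.6, 77.5 and 50.6 CPM at 3 h and 54.3, 70.2 and 75.1 CPM at 18 h. ACOD1, the itaconate-producing enzyme, was not called, with means of 4136 CPM at 3 h and 2704 CPM at 18 h.

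Antigen presentation and co-stimulation genes rose or were not called. Of 16 tested (30 listed), 6 were higher and none lower, against 7.78% and 10.7% of all genes tested. Their median log2 change was 0.53 in exposed and -0.24 in control wells. PDCD1LG2, a ligand of the inhibitory receptor PD-1, was at 1.12, 1.18 and 0.251 CPM in the 3 h libraries and 6.403, 6.01 and 9.1 CPM in the 18 h libraries (log2 3.06 ± 0.57 (SE), edgeR adjusted p = 0.00378). PSMB10, an immunoproteasome subunit that helps to cut peptides for MHC class I, was at 33.6, 53.8 and 60.3 CPM in the 3 h libraries and 155, 156 and 152 CPM in the 18 h libraries (log2 1.64 ± 0.37 (SE), edgeR adjusted p = 0.0101). The other 4, ERAP1, PSMB9, PSME2 and PSME1, also belong to the class I peptide pathway and changed by 0.67 to 1.24 on the log2 scale. PSMB9 was not called without any 1 library other than library 2 of 3 h (edgeR adjusted p 0.0536 to 0.108). MHC class II genes were not called, with BOLA-DRA at means of 337 and 308 CPM and CD74 at 478 and 481 CPM. In the complement list, 5 of 17 were tested, 1 rose and 1 fell (median log2 change 0.31 in exposed and -0.01 in control wells). Of all genes tested, 7.78% rose and 10.7% fell. The exposed median was 0.16 without library 2 of 18 h and 0.15 without library 1 of 3 h. C1R, a protease of the classical pathway, was at 8.4, 17.5 and 11.7 CPM in the 3 h libraries and 68.2, 67.4 and 108 CPM in the 18 h libraries (log2 2.68 ± 0.42 (SE), edgeR adjusted p = 0.00174), and CD59, the membrane inhibitor of the terminal complex, at 1.12, 2.27 and 2.39 CPM in the 3 h libraries and 0.0762, 0.334 and 0.355 CPM in the 18 h libraries (log2 -2.95 ± 0.68 (SE), edgeR adjusted p = 0.0111).

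**Figure D3:**
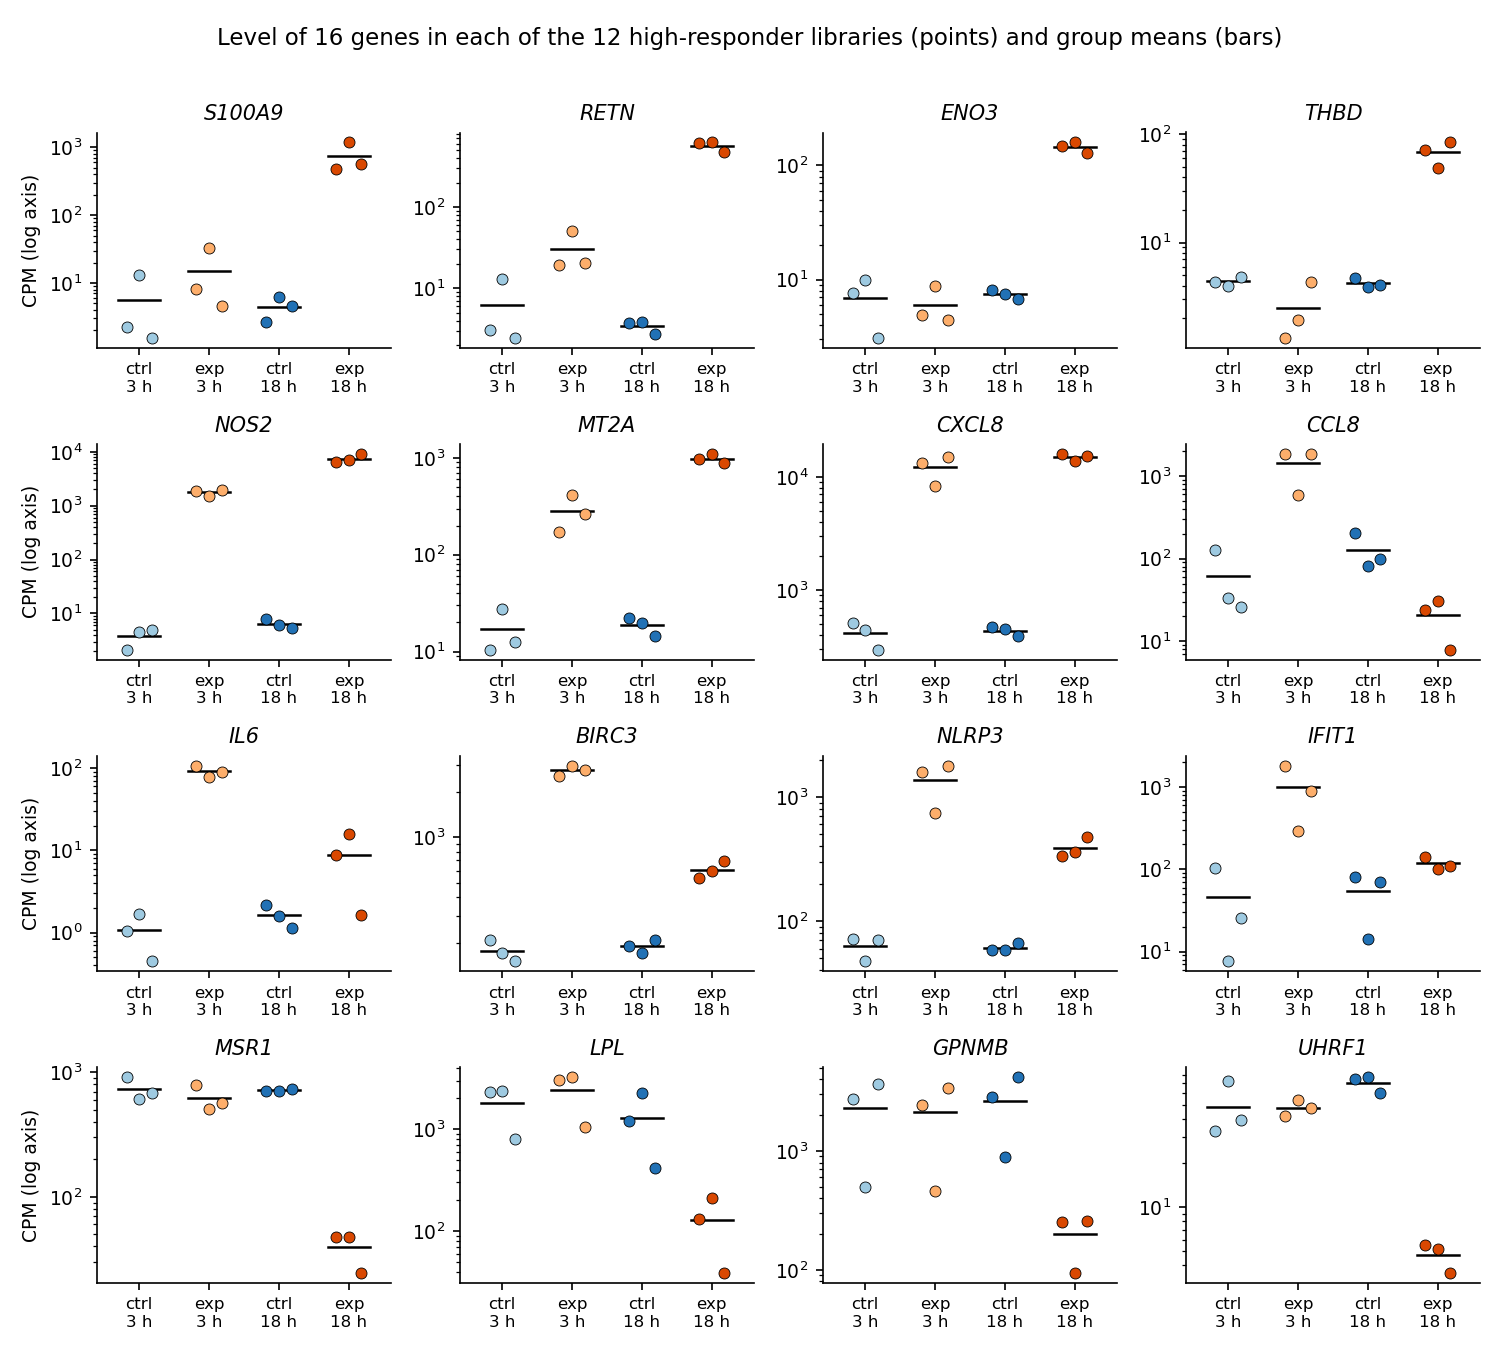
Points give the CPM of 16 genes in each of the 12 high-responder libraries (log axes, libraries 1 to 3 from left to right), and bars give the mean of each group of 3. The rising genes, such as S100A9 and NOS2, were highest in the exposed 18 h libraries, while CCL8, MSR1, LPL and UHRF1 in those libraries had group means below both control means.

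Metabolic genes changed in part. Of 20 tested glycolysis and hypoxia genes (31 listed), 5 rose and 1 fell, against 7.78% and 10.7% of all genes tested. Their median log2 change was 0.24 in exposed and 0.06 in control wells. ENO3, the enolase isoform best known from muscle, was at 4.85, 8.71 and 4.395 CPM in the 3 h libraries and 148, 159.6 and 129.8 CPM in the 18 h libraries. Its control wells were at 7.66, 10.01 and 3.07 CPM at 3 h and 8.08, 7.502 and 6.73 CPM at 18 h (log2 fold change 4.58 ± 0.41 (SE, n = 3 and 3), edgeR adjusted p = 5.72e-05 for the exposed wells). ADM, the vasodilator peptide adrenomedullin, was at 14.2, 36.3 and 7.16 CPM in the 3 h libraries and 293, 261 and 126 CPM in the 18 h libraries (log2 3.54 ± 0.62 (SE), edgeR adjusted p = 0.00279). The lactate exporter SLC16A3, the glucose transporter SLC2A1 and lactate dehydrogenase LDHA also rose, by 1.81, 1.02 and 0.82 on the log2 scale, LDHA with a call that was lost without library 2 of 18 h or library 1 or 3 of 3 h (edgeR adjusted p 0.0528 to 0.0881). Core enzymes such as GAPDH (0.04), TPI1 (0.12) and PKM (0.21) were not called. PFKP, the platelet-type phosphofructokinase, was at 49.1, 73.4 and 77.98 CPM in the 3 h libraries and 34.9, 28.4 and 33.4 CPM in the 18 h libraries (log2 -1.05 ± 0.31 (SE), edgeR adjusted p = 0.0318). The call was lost without any library of 18 h and without library 2 or 3 of 3 h (log2 -1.16 to -0.93, edgeR adjusted p 0.0735 to 0.103), and with library totals alone. HIF1A, the oxygen-regulated transcription factor that the study listed as M1-associated, was at 1437, 1225 and 1439 CPM in the 3 h libraries and 1011, 903 and 1581 CPM in the 18 h libraries (log2 -0.23 ± 0.27 (SE), edgeR adjusted p = 0.588).

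Oxidative stress and iron genes rose or were not called. Of 13 tested (22 listed), 7 were higher and none lower, against 7.78% and 10.7% of all genes tested. Their median log2 change was 0.87 in exposed and -0.06 in control wells, and 11 were higher with library totals alone. MT2A, a metallothionein that binds zinc and copper, was at 173, 416 and 265 CPM in the 3 h libraries and 981, 1101 and 879 CPM in the 18 h libraries (log2 1.79 ± 0.38 (SE), edgeR adjusted p = 0.00715). PRDX5, a peroxiredoxin that reduces peroxides, was at 267, 315 and 251 CPM in the 3 h libraries and 764, 884 and 757 CPM in the 18 h libraries (log2 1.53 ± 0.28 (SE), edgeR adjusted p = 0.00342). The zinc importer SLC39A8, the thioredoxin reductase TXNRD1, GCLM of glutathione synthesis, SRXN1 and TXN were the other 5, with log2 changes from 0.84 to 1.46. TXN was not called without library 1 or 2 of 18 h or library 2 or 3 of 3 h (edgeR adjusted p 0.0893 to 0.121). Ferritin heavy chain FTH1, first in the exposed wells of 18 h by TPM, a unit that corrects for transcript length, had 19782 TPM at 3 h and 32140.5 TPM at 18 h and was not called (log2 0.55 ± 0.27 (SE), edgeR adjusted p = 0.177). Respiratory chain subunits had a median log2 change of -0.23 in exposed and -0.22 in control wells. Of 12 tested (76 listed), 3 fell, against 10.7% of all genes tested. The exposed median was -0.38 without library 2 of 18 h and -0.13 without library 1 of 3 h. NDUFA13 of complex I was at 66.8, 85.4 and 99.6 CPM in the 3 h libraries and 37.8, 43.1 and 36.04 CPM in the 18 h libraries (log2 -1.11 ± 0.32 (SE), edgeR adjusted p = 0.0331), and UQCR11 of complex III at 32.5, 39.5 and 50.7 CPM in the 3 h libraries and 14.8, 19.1 and 13.5 CPM in the 18 h libraries (log2 -1.37 ± 0.33 (SE), edgeR adjusted p = 0.0141). Neither call was stable: NDUFA13 was lost without any library of 18 h and without library 2 or 3 of 3 h (log2 -1.19 to -0.97, edgeR adjusted p 0.0669 to 0.108) and with library totals alone, and UQCR11 without library 1 or 3 of 18 h or library 3 of 3 h (log2 -1.37 to -1.19, edgeR adjusted p 0.0529 to 0.0567). None of the 12 was called without library 1 or 3 of 18 h or library 3 of 3 h, 1 was called without library 2 of 3 h, and 1 with library totals alone.

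Most called genes of lipid handling fell. Of 5 tested genes of cholesterol synthesis and uptake (25 listed), 3 fell and none rose, against 10.7% and 7.78% of all genes tested. Their median log2 change was -0.99 in exposed and -0.21 in control wells. INSIG1, which holds the sterol sensor in the endoplasmic reticulum, was at 133, 147 and 186 CPM in the 3 h libraries and 44.4, 38.1 and 62.3 CPM in the 18 h libraries (log2 -1.69 ± 0.31 (SE), edgeR adjusted p = 0.00354), and ACAT2 changed by -0.99 on the log2 scale. Among 5 tested efflux genes and targets of liver X receptors (14 listed), 1 rose and 2 fell. Of all genes tested, 7.78% rose and 10.7% fell. The median log2 change of the list was 0.29 in exposed and -0.04 in control wells. The exposed median was 0.14 without library 3 of 18 h and 0.18 without library 1 of 3 h. LPL, the lipoprotein lipase that frees fatty acids, was at 3025, 3236 and 1046 CPM in the 3 h libraries and 131, 211 and 38.8 CPM in the 18 h libraries (log2 fold change -4.26 ± 0.80 (SE, n = 3 and 3), edgeR adjusted p = 0.00398). Control wells held 2291, 2343 and 792 CPM at 3 h and 1205, 2252 and 411 CPM at 18 h. Library 3 was the lowest of its group in all 4 groups. PPARG, a lipid-activated nuclear receptor, was at 40.1, 17.2 and 41.7 CPM in the 3 h libraries and 8.46, 11.3 and 13.6 CPM in the 18 h libraries (log2 -1.57 ± 0.31 (SE), edgeR adjusted p = 0.00567). NR1H3, the liver X receptor alpha, was at 57.3, 76.2 and 96.8 CPM in the 3 h libraries and 102, 168 and 179 CPM in the 18 h libraries (log2 0.96 ± 0.29 (SE), edgeR adjusted p = 0.0382). The call was lost without library 2 or 3 of 18 h or library 1 or 2 of 3 h (log2 0.79 to 0.95, edgeR adjusted p 0.0869 to 0.123).

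Genes of the cell's degradative machinery fell or were not called. In the lysosome and phagosome list, 6 of 12 tested (43 listed) fell and none rose, against 10.7% and 7.78% of all genes tested. The list's median log2 change was -0.83 in exposed and 0.02 in control wells. TPCN1, a calcium channel of endolysosomes, was at 6.16, 7.17 and 8.54 CPM in the 3 h libraries and 0.534, 0.418 and 0.118 CPM in the 18 h libraries (log2 -4.24 ± 0.43 (SE), edgeR adjusted p = 0.000141). GPNMB, a lysosome-associated glycoprotein, was at 2454, 464 and 3420.3 CPM in the 3 h libraries and 251, 94.2 and 259 CPM in the 18 h libraries, with library 2 the lowest at both times. Its control wells were at 2720.4, 502 and 3669.6 CPM at 3 h and 2839, 884 and 4183 CPM at 18 h (log2 fold change -3.39 ± 0.88 (SE, n = 3 and 3), edgeR adjusted p = 0.0197 for the exposed wells). The GPNMB call was lost without any library of 18 h and without library 3 of 3 h (log2 -3.61 to -2.86, edgeR adjusted p 0.0546 to 0.0723). LGMN, the asparaginyl endopeptidase legumain, was at 3087, 2788 and 4254 CPM in the 3 h libraries and 1049, 998.7 and 1805 CPM in the 18 h libraries (log2 -1.39 ± 0.29 (SE), edgeR adjusted p = 0.00723). The remaining 3 were the proton pump subunit ATP6V1B2 (-1.19), beta-glucuronidase GUSB (-0.98) and the membrane protein SCARB2 (-0.90). GPNMB, LGMN and MSR1 are genes that the study names as M2-associated and picked for their difference between phenotypes in these libraries, so their joint direction is not independent evidence.

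Of 5 tested scavenger, phagocytic and M2-associated receptors (28 listed), 1 rose and 1 fell (median log2 change -0.55 in exposed and -0.12 in control wells), and with a term for the cow 2 fell. In the fit without that term, 7.78% of all genes tested rose and 10.7% fell. The exposed median was -0.27 without library 3 of 18 h, -0.17 without library 2 of 3 h and -0.32 without library 3 of 3 h. MSR1, the class A scavenger receptor for modified lipoproteins and bacteria, was at 794, 507 and 564 CPM in the 3 h libraries and 47.3, 47.8 and 24.5 CPM in the 18 h libraries. Control wells were at 913, 614 and 675 CPM at 3 h and 711, 703 and 727 CPM at 18 h, all above every exposed 18 h library (log2 fold change -3.96 ± 0.29 (SE, n = 3 and 3), edgeR adjusted p = 1.83e-05 for the exposed wells). CLEC4E, the Mincle receptor for mycobacterial glycolipid, was at 47.04, 31.4 and 29.8 CPM in the 3 h libraries and 42.8, 84.2 and 117 CPM in the 18 h libraries with overlapping groups (log2 1.18 ± 0.38 (SE), edgeR adjusted p = 0.0479). Its call was lost whenever 1 library other than library 1 of 18 h was left out (log2 0.82 to 1.41, edgeR adjusted p 0.0505 to 0.185). It was also lost with RLE size factors, in a fit of the 6 exposed libraries alone and in libraries thinned to the smallest total. CX3CR1 stayed below the filter, with 2 counts over the exposed libraries of 3 h and 0 over those of 18 h. The lipopolysaccharide co-receptor CD14, which the study lists as M1-associated, was at 357, 519.7 and 366 CPM in the 3 h libraries and 283, 373 and 335 CPM in the 18 h libraries (log2 -0.33 ± 0.23 (SE), edgeR adjusted p = 0.353). The ectoenzyme CD38, which it lists with CD14, was at 84.7, 104 and 96.3 CPM in the 3 h libraries and 128, 168 and 147 CPM in the 18 h libraries (log2 0.64 ± 0.17 (SE), edgeR adjusted p = 0.0247). The CD38 call was lost without library 2 or 3 of 18 h or library 1 or 3 of 3 h (log2 0.53 to 0.65, edgeR adjusted p 0.0657 to 0.0935). In 1 fit of all 24 libraries CD38 was not called either (edgeR adjusted p = 0.509).

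The list with the most falling members was DNA replication and mitosis, where 21 of 28 tested genes (41 listed) fell and 1 rose, against 10.7% of all genes tested that fell (median log2 change -1.86 in exposed and 0.31 in control wells). UHRF1, which maintains DNA methylation at replication forks, was at 41.8, 53.6 and 47.3 CPM in the 3 h libraries and 5.49, 5.18 and 3.55 CPM in the 18 h libraries (log2 fold change -3.32 ± 0.30 (SE, n = 3 and 3), edgeR adjusted p = 7.41e-05). Its control wells were at 33.3, 72.5 and 39.3 CPM at 3 h and 74.7, 77.1 and 60.2 CPM at 18 h. E2F8, a repressor of the E2F family, was at 6.72, 10.8 and 7.28 CPM in the 3 h libraries and 0.915, 0.919 and 0.591 CPM in the 18 h libraries (log2 -3.32 ± 0.33 (SE), edgeR adjusted p = 0.000119). MKI67, the proliferation marker, had means of 239 CPM at 3 h and 51.5 CPM at 18 h in exposed wells and of 214 and 409.9 CPM in control wells. The helicase subunits MCM2, MCM3, MCM5 and MCM7 changed by -2.65 to -1.64 on the log2 scale, all called. CDKN1B, the inhibitor p27 of cyclin-dependent kinases, was the member that rose, at 34.5, 43.7 and 34.5 CPM in the 3 h libraries and 48.5, 63.98 and 61.9 CPM in the 18 h libraries (log2 0.63 ± 0.19 (SE), edgeR adjusted p = 0.0361). Its call was lost without library 2 or 3 of 18 h or library 1 or 3 of 3 h (log2 0.55 to 0.58, edgeR adjusted p 0.0993 to 0.116) and in libraries thinned to the smallest total. In control wells 27 of the 28 had a positive log2 change, none of them called. In bulk libraries fewer cells that express a gene and less RNA per cell cannot be told apart.

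Of 20 tested genes of the unfolded protein and amino acid stress response (32 listed), 10 fell and none rose. This compares with 10.7% and 7.78% of all genes tested. The list's median log2 change was -0.68 in exposed and -0.08 in control wells, and 5 members fell without library 3 of 18 h. CHAC1, a glutathione-degrading target of ATF4, was at 23.3, 54.6 and 41.2 CPM in the 3 h libraries and 2.97, 5.68 and 3.66 CPM in the 18 h libraries (log2 -3.27 ± 0.39 (SE), edgeR adjusted p = 0.000318), and DDIT4, an inhibitor of mTORC1, at 438, 726 and 564 CPM in the 3 h libraries and 193.8, 234 and 118 CPM in the 18 h libraries (log2 -1.66 ± 0.25 (SE), edgeR adjusted p = 0.00134). For both, the control wells stayed lower still, with means of 0.882 and 1.49 CPM for CHAC1 and 21.2 and 24.3 CPM for DDIT4. ATF4 itself changed by -0.61 on the log2 scale and was called, except without library 3 of 18 h and with library totals alone, and the chaperone HSPA5 was not called (-0.06). Tissue remodelling and coagulation genes had 1 of 12 tested (30 listed) higher and 2 lower, against 7.78% and 10.7% of all genes tested. The median log2 change was -0.05 in exposed and -0.10 in control wells. With a term for the cow, 2 were higher and 3 lower. With 1 library left out the exposed median ran from -0.30 (library 1 of 18 h) to 0.12 (library 1 of 3 h). ITGB8, the integrin subunit that activates latent TGF-beta, was at 50.03, 49.02 and 27.9 CPM in the 3 h libraries and 198, 123 and 384 CPM in the 18 h libraries (log2 2.48 ± 0.45 (SE), edgeR adjusted p = 0.00344). ICAM1, the adhesion ligand of leukocyte integrins, was at 1399.8, 1258 and 2609.9 CPM in the 3 h libraries and 717, 722 and 1051 CPM in the 18 h libraries (log2 -1.08 ± 0.34 (SE), edgeR adjusted p = 0.0423). The call was lost without any library of 18 h, without library 3 of 3 h (log2 -1.29 to -0.68, edgeR adjusted p 0.0539 to 0.18) and with library totals alone. TNC, the matrix protein tenascin C, was at 2.61, 3.45 and 2.89 CPM in the 3 h libraries and 0.0762, 0.334 and 0.118 CPM in the 18 h libraries (log2 -4.00 ± 0.66 (SE), edgeR adjusted p = 0.00334), so its levels were low at both times.

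**Figure D4:**
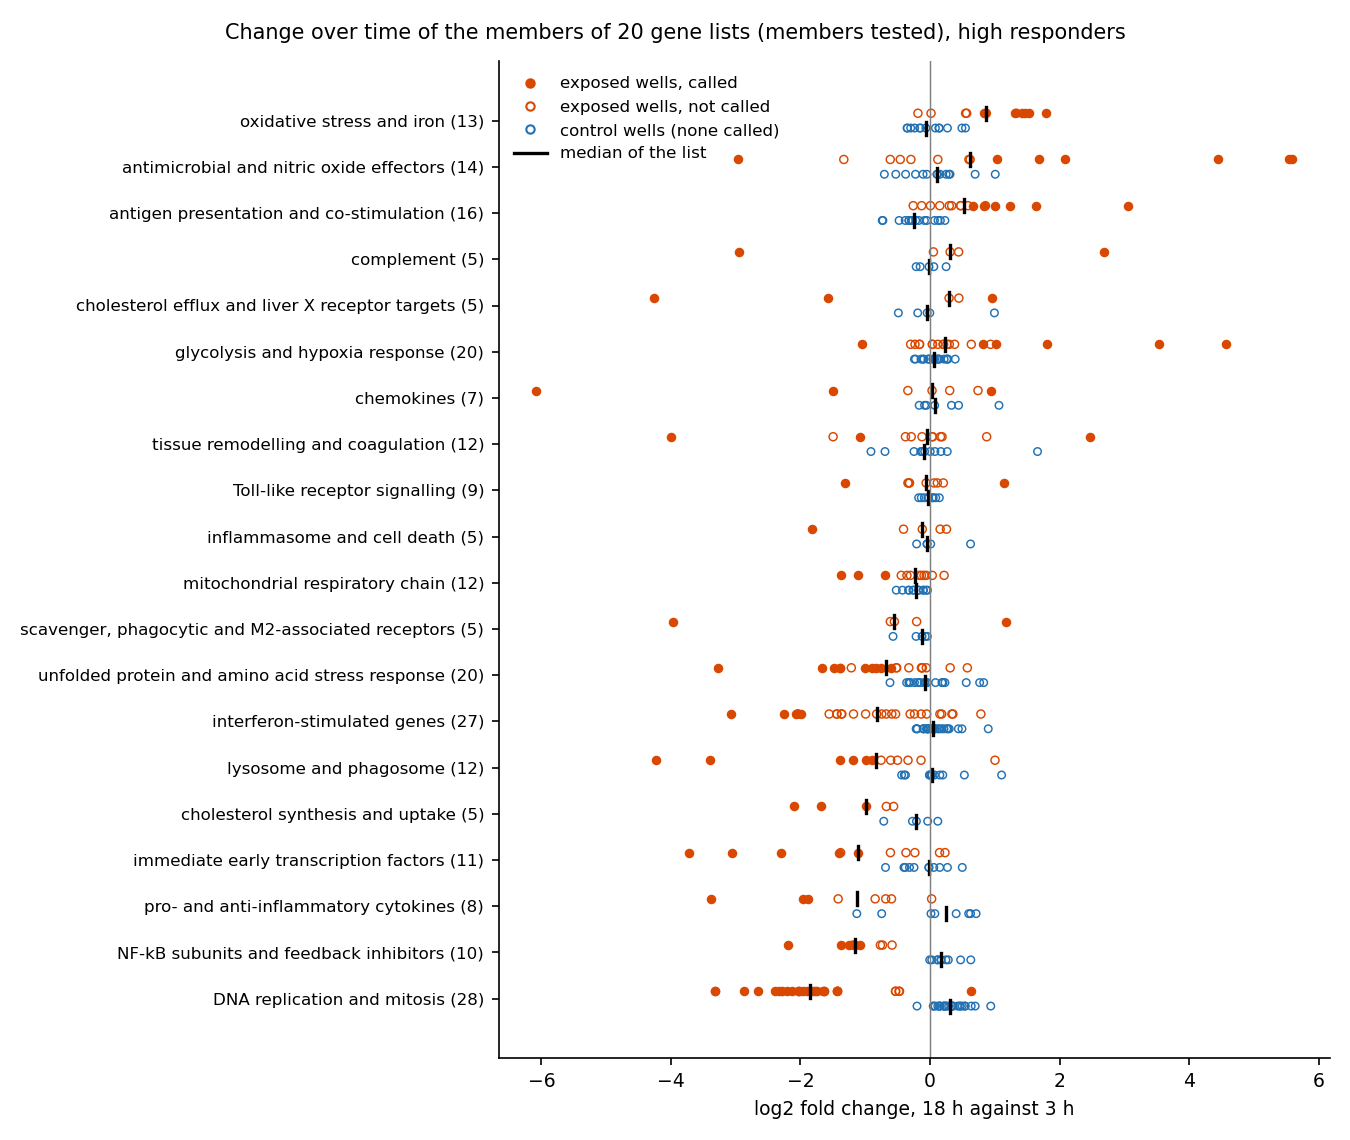
Each circle is the log2 fold change of 1 gene, 18 h against 3 h, for the members of 20 gene lists that were tested (number in brackets), in exposed wells (orange, filled where called) and in control wells (blue), and black ticks mark the list medians. Exposed medians run from -1.86 for DNA replication and mitosis to 0.87 for oxidative stress and iron, and control medians lie between -0.24 and 0.31.

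The 10 genes with the largest rise and the 10 with the largest fall among called genes with a symbol, at least 10 CPM in the higher group and no overlap of libraries, included several outside the lists. TGM3, a protein-crosslinking transglutaminase, was at 0.187, 0.363 and 0 CPM in the 3 h libraries and 15.02, 2.09 and 21.5 CPM in the 18 h libraries (log2 5.94 ± 1.11 (SE), edgeR adjusted p = 0.00398), and library 2 of 18 h was the lowest of its group. APOBEC3Z1, a cytidine deaminase, was at 36.8, 22.5 and 44.8 CPM in the 3 h libraries and 861, 669 and 1271 CPM in the 18 h libraries (log2 4.75 ± 0.51 (SE), edgeR adjusted p = 0.000177), and at 0, 1.56 and 0.992 CPM at 3 h and 0.869, 0.682 and 1.59 CPM at 18 h in control wells. THBD, the thrombin receptor thrombomodulin, was at 1.31, 1.91 and 4.27 CPM in the 3 h libraries and 71.4, 48.9 and 84.5 CPM in the 18 h libraries (log2 4.75 ± 0.37 (SE), edgeR adjusted p = 2.46e-05). Here the exposed 3 h mean of 2.49 CPM lay below both control means, 4.37 and 4.21 CPM. RETN, the cytokine resistin, was at 19.2, 50.7 and 20.5 CPM in the 3 h libraries and 607, 625 and 479.6 CPM in the 18 h libraries (log2 4.23 ± 0.59 (SE), edgeR adjusted p = 0.000858). NXPE4 reached 23.1, 21.6 and 15.95 CPM at 18 h from a mean of 0.815 CPM, and SH2D4A, an SH2 domain adaptor, reached 9.99, 8.44 and 14.5 CPM from 0.499 CPM. The control libraries of SH2D4A were all at 0.

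On the falling side, GPR34, a receptor for lysophosphatidylserine, was at 14.6, 5.26 and 19.5 CPM in the 3 h libraries and 0.0762, 0.251 and 0.118 CPM in the 18 h libraries (log2 -6.35 ± 0.65 (SE), edgeR adjusted p = 0.000153). Its control wells were at 66.4, 53.5 and 89.8 CPM at 3 h and 46.3, 41.2 and 70.5 CPM at 18 h, so the exposed wells were already below the controls at 3 h. STOX1, a winged helix transcription factor, was at 23.7, 5.63 and 14.7 CPM in the 3 h libraries and 0.305, 0.334 and 0.236 CPM in the 18 h libraries (log2 -5.57 ± 0.59 (SE), edgeR adjusted p = 0.000177). Control values lay between 0.0992 and 0.614 CPM. The lipid transporter ABCA10 (-4.44), the aldose reductase AKR1B1 (-3.99), the endocytic adaptor DAB2 (-3.90), the scaffold protein IQGAP2 (-3.87) and the lysosomal polyamine transporter ATP13A2 (-3.81) completed the 10 with CCL8, LPL and MSR1. DAB2 was at 192, 222 and 283 CPM in the 3 h libraries and 14.2, 16.5 and 15.95 CPM in the 18 h libraries, against 679, 640.2 and 916 CPM at 3 h and 413, 448 and 675 CPM at 18 h in control wells. ATP13A2 was at 36.8, 48.9 and 137 CPM in the 3 h libraries and 5.56, 5.01 and 5.32 CPM in the 18 h libraries, with library 3 the highest at 3 h. Of the 2139 called genes 1538 had no symbol in the tables used here. The largest changes among them, under the same conditions of level, were ENSBTAG00000012529, with 3 counts over the 3 h libraries and 669 over the 18 h libraries, ENSBTAG00000011634 with 5 and 493 counts, ENSBTAG00000004560 with 297 and 1 counts, and ENSBTAG00000007268 with 14578 and 94 counts.

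Whether the change of the exposed wells differed from that of the control wells was tested in 1 fit with a term for each of the 6 pairs of control and exposed wells. The difference was called for 2408 of 11572 genes (20.8%), 905 with a higher (7.82%) and 1503 with a lower (13%) exposed change. The number depended on the libraries: 1343, 1459 and 1489 genes were called without pair 1, 2 or 3 of 18 h, and 1601, 3642 and 1506 without pair 1, 2 or 3 of 3 h. Without a term for the pairs it was 724. Among genes with a symbol the largest positive differences were those of TGM3, S100A8, S100A9, NXPE4 and RETN. For S100A9 the exposed change was 5.59 and the control change -0.38 on the log2 scale, a difference of 5.85 ± 0.25 (SE), edgeR adjusted p = 3.32e-05. For RETN they were 4.23 and -0.87, a difference of 4.89 ± 0.30 (SE), edgeR adjusted p = 9.90e-05. The largest negative differences were those of CCL8, STOX1, GPR34, TPCN1 and IL6. CCL8 changed by -6.08 in exposed and 1.07 in control wells, a difference of -7.36 ± 0.76 (SE), edgeR adjusted p = 0.000614, and IL6 by -3.39 and 0.63, a difference of -4.24 ± 0.69 (SE), edgeR adjusted p = 0.00388. TGM3 (7.03 ± 2.09 (SE), edgeR adjusted p = 0.0485) was not called without pair 1 or 3 of 18 h, without any pair of 3 h, with library totals alone, without the pair term or with a term for the cow in its place, and NXPE4 (5.79 ± 1.45 (SE), edgeR adjusted p = 0.0239) was not called without pair 1 or 3 of 18 h or pair 1 or 2 of 3 h.

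The exposed wells of the low responders were also taken at 3 h and 18 h. The difference in change between both phenotypes was tested over their 12 exposed libraries. None of 11462 genes was called by edgeR (0%), though 511 reached a p below 0.05 before adjustment, and DESeq2 called 2 genes, PRDX5 and ETV5, at log2 differences of 1.08 and -2.20 (adjusted p = 0.00581 and 0.0309). With a term for the cow, edgeR called 6 genes, all with a positive difference of high minus low responders: ENO3 (log2 difference 2.59, adjusted p = 0.00305), S100A12 (2.56, 0.00305), S100A8 (2.82, 0.04996), TREML2 (1.82, 0.0434), PTAFR (1.495, 0.04996) and 1 gene without a symbol. TREML2, PTAFR and ETV5 are named after their values were seen. Without the cow term the log2 change of ENO3 was 4.58 in high and 1.97 in low responders, that of S100A12 4.45 in high and 1.88 in low responders and that of S100A8 5.55 in high and 2.98 in low responders. MSR1 changed by -3.96 in high and -3.30 in low responders, BIRC3 by -2.18 in high and -2.28 in low responders and NOS2 by 2.09 in high and 1.38 in low responders, and for these 3 the difference was not called in either fit. Other genes lay further apart, also without a call. IL6 changed by -3.39 in high and -7.51 in low responders, and LGMN by -1.39 in high and -0.09 in low responders. With 3 libraries per group, the absence of calls does not show that both changes were equal.

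The label of the cells was set against marker genes. Of 12 macrophage markers listed, 6 had an identifier, and their summed level was 5411 to 6612 CPM in the exposed 3 h libraries and 7218 to 8201 CPM in the exposed 18 h libraries, against 4292 to 5290 CPM in control wells. Taken singly, 2 of the 6 had a positive and 4 a negative log2 change in exposed wells, with a median of -0.34. CD68 and FCER1G, at means of 1793 and 803 CPM at 3 h and 2338 and 627 CPM at 18 h, were not called, CYBB rose, and AIF1 (-1.21) and MSR1 fell. No marker of T cells, dendritic cells, platelets or red cells could be matched, so these lists were not analysed here. CD79A, the 1 B cell marker matched of 8, was at 0.126 to 1.91 CPM in the exposed wells. The 2 NK cell markers matched of 8, PRF1 and TBX21, summed to 5.02 to 11.9 CPM at 3 h and 6.50 to 9.76 CPM at 18 h in exposed wells. PDGFRB and KDR, matched of 8 stromal and endothelial markers, summed to 0.118 to 3.17 CPM. FCAR, the IgA receptor and the 1 neutrophil marker matched of 8, was at 8.96, 6.99 and 5.15 CPM in the 3 h libraries and 61.8, 73.7 and 78.8 CPM in the 18 h libraries (log2 3.35 ± 0.29 (SE), edgeR adjusted p = 4.92e-05) and at 6.74, 9.26 and 5.95 CPM at 3 h and 7.62, 8.87 and 4.83 CPM at 18 h in control wells. It moved with S100A8, S100A9 and S100A12, which neutrophils also express, and its part in their rise was not tested.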

How the data were processed

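The samples were monocyte-derived macrophages of Holstein cows, 1 mRNA library per well. Per the labels and the study's methods, stranded libraries were sequenced as paired reads, trimmed with Trimmomatic, checked with FastQC 0.11.5, mapped by STAR (bovine build UMD 3.1) and quantified with RSEM. The deposited files give, per Ensembl gene, the RSEM expected count, which is estimated, not normalised and shares reads that map to several genes. They also give the deposited TPM, which the authors' RSEM run scaled by effective length and depth and which is used here for 1 gene.

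Expected counts were rounded and read by group label. In edgeR 4.0.16 (R 4.3.3), genes passing filterByExpr were scaled by TMM and tested with the quasi-likelihood F test, in 1 fit of the 12 high-responder libraries with 4 conditions, at a Benjamini-Hochberg adjusted p below 0.05 and a fold above 1.5. The study fits no comparison between times, so this design was chosen here. Standard errors are the log2 fold change divided by the square root of F. The difference between exposed and control changes had a term for each of the 6 well pairs, and the high minus low difference was fitted over the 12 exposed libraries. DESeq2 1.42.0, other scalings, filters, thresholds, library sets and blocks were alternatives. Scripts were tested on simulated data.

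Libraries of 3 h and 18 h whose codes share letters deviated together from their group means, with correlations of 0.304 to 0.526 in exposed and 0.457 to 0.697 in control wells, against at most 0.00472 for other letters, so the letters pair the samples by cow in the fit with a cow term. With 3 libraries against 3, an exact permutation test of 1 gene cannot go below p = 0.1 (two-sided), so only the fits across all genes were used. Totals of 6589401 to 17676166 expected counts in the 12 high-responder libraries set the precision of each value, for counting error only.

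Members and gene lists were chosen with earlier results of these data known. Symbols came from the study's gene tables, which were given in part and hold 2799 of 24616 identifiers (2250 of the 11572 tested). Part of them follow the order of the difference between phenotypes, so list members with a symbol are not a random sample. The authors' fold changes and p-values in those tables were not used. Genes named are, per direction, the 10 with the largest exposed change among called genes with a symbol, at least 10 CPM in the higher group, a library above 0 in the lower group and no overlap between groups. Added were, per direction, up to 2 called members of each list, the 5 with the largest difference between exposed and control change, the 3 with the largest control change (none was called), up to 3 called for the high minus low difference (none was called), and, apart from direction, 11 genes the study names as M1- or M2-associated, of which 1 is not reported here. Other genes are list members or are said to be chosen after their values were seen. Close paralogs such as MT2A, CCL4, IFIT1 and APOBEC3Z1 can share reads with their copies, so their values are less certain. No sequence or coordinate is given, since the reference tables used here hold no match to these identifiers, and promoter motifs were not analysed here.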

Additional observations from a re-analysis of the deposited data

Results flagged for a closer look

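The change from 3 h to 18 h in exposed wells differed from that in control wells, by a test of the difference itself, for 2408 of 11572 genes tested. The largest positive log2 differences among genes with a symbol were 7.03 for TGM3, 5.95 for S100A8, 5.85 for S100A9, 5.79 for NXPE4 and 4.89 for RETN. The largest negative differences were -7.36 for CCL8, -6.57 for STOX1, -5.75 for GPR34, -4.73 for TPCN1 and -4.24 for IL6. All 10 passed the threshold of the edgeR test with a term for each well pair, with adjusted p from 3.32e-05 for S100A9 to 0.0485 for TGM3. TGM3 and NXPE4 lost their calls when single well pairs were left out, and for both of these genes the control wells held at most 0.264 CPM. The groups hold 3 libraries each, and no outlier test was run on groups of that size.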

How the results depend on the processing

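The exposed count of 2139 stayed within 1.5 times under all 12 alternatives that kept every library (1882 to 3080) and ranged from 1363 to 1960 when 1 exposed library was left out. The difference between exposed and control changes gave 1343 to 3642 genes when 1 well pair was left out and 724 with no replicate block, against 2408, and 1804 with a block by cow in place of the pairs. The control comparison, at 0, gave 1 gene at an adjusted p below 0.1, in the fit of all 24 libraries, with DESeq2, with library totals alone, at a mean of at least 50 counts and with no filter, and 4 with the replicate block by cow. The high minus low difference, at 0, gave 2 with DESeq2 and 6 with the replicate block. The block by cow changed no other call of a single gene named by rule, except that the difference of TGM3, 7.03, was not called with it (6.49). IRF1, not called, changed sign with library totals alone and without library 3 of 3 h. Its value ran from -0.24 to 0.14 when 1 library was left out, with 0.14 reached without library 3 of 3 h. Of 77 values of single genes, 61 kept their side of the threshold and direction under every alternative. Library totals alone moved the median of all genes to 0.11 for the difference and -0.14 for high minus low. The cause of these shifts was not tested, except that leaving out a library leaves fewer samples. The 3 h library 1 of each kind, the smallest, limits the values of low genes, and thinning all libraries to its size called 1940 genes.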
